A study of Homo sapiens with 2 samples.

Results

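Of the 9 mucin genes followed here, MUC1, MUC2, MUC4, MUC5B, MUC6, MUC13, MUC15, MUC16 and MUC20, only 3 had a named value: MUC1 with 2 features, MUC2 with 1 and MUC16 with 1. These 4 features stood among 12598 named features of 11564 genes, a feature being the value for 1 transcript accession. They were chosen by gene name, with MUC1 leading the choice because its difference between the arrays was already known, so the values below describe these arrays and are not a test. MUC4, MUC5B, MUC6, MUC13, MUC15 and MUC20 were represented by no named feature here, and nothing is said about their levels.

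The cells were T47D, an established human breast cancer line of luminal type, in which a lentivirus carried either a short hairpin RNA against the zinc finger repressor TRPS1 (shTRPS1) or a negative control (NC). Each group was 1 one-colour NimbleGen array of Cy3-labelled cDNA from total RNA, so there were 2 arrays, no replicates and no test between groups. Both groups carried a lentivirus and were grown in the same medium. The labels do not give the hairpin's sequence, whether the cells were a clone or a pool, or how long after infection RNA was taken.

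The targeted transcript gave little sign of the knockdown. TRPS1 had an intensity of 603 in the array labelled shTRPS1 and 726 in the NC array, a log2 difference (shTRPS1 minus NC) of -0.27 or 17.0% lower. It was less than 2-fold apart, so a knockdown is not evident in these arrays. The SD of the log2 difference over all named features was 0.58, a spread across genes and not the replicate error of TRPS1, which was not measured. Every direction below compares the array labelled shTRPS1 with the NC array.

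Mucins are large glycoproteins whose protein backbone is rich in serine, threonine and proline and carries dense O-linked sugar chains. One class spans the membrane of the cell surface, and the other is secreted and forms gels. MUC1 is the transmembrane mucin of the luminal face of breast ducts. Its precursor cleaves itself within the SEA domain into a long extracellular subunit and a short one that holds the membrane anchor and the cytoplasmic tail, and the extracellular part shed into blood is used to follow breast cancer. MUC16, also transmembrane, is best known from ovarian and mesothelial surfaces, and MUC2 is the gel-forming mucin of intestinal goblet cells. Among the genes without a value, MUC4, MUC13, MUC15 and MUC20 also span or attach to the membrane, whereas MUC5B and MUC6 are gel-forming mucins of the airway and the stomach.

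The MUC1 upstream sequence is shown because MUC1 carries the finding and TRPS1 belongs to the proteins that bind GATA motifs. It is the RefSeq sequence of GRCh38.p14, chr1:155192916-155193165 on the minus strand, 5′ to 3′. These 250 bases end just before 1 of the 2 MUC1 transcript start sites on record, and the other was not searched. Capitals mark matches to the core of a GC box (GGGCGG) and to a TATA box (letters TATAAA).

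MUC1: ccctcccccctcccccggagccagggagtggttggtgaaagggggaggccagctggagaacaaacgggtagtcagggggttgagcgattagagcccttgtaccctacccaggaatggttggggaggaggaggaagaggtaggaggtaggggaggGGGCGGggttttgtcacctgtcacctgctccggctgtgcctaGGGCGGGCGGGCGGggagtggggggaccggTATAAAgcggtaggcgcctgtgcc

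The GC box core occurred 4 times, at -96, -54, -50 and -46 from the start site. Among the last 3, only neighbouring matches overlap. The TATA box letters occurred once, at -24. Read on both strands, the GC box core was found in 42.6% and the TATA box letters in 10.7% of 35116 upstream windows of the same length. GATA, read on both strands, was found in 45.6% of those windows and had 0 matches in this one, which says only that these letters are not within the 250 bases. The window held 66.0% G and C, against a median of 58.0% over all windows. No occupancy of this region was measured here.

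MUC1 had the higher signal in the shTRPS1 array on both of its features. Feature NM_001018016 had an intensity of 9335 in the shTRPS1 array and 3692 in the NC array, a log2 difference (shTRPS1 minus NC) of 1.34 or 2.53-fold. Feature NM_001018017 had 8056 in the shTRPS1 array and 4108 in the NC array, a log2 difference of 0.97 or 1.96-fold. The mean of the 2 log2 differences was 1.15, which is 2.23-fold. Within each array the 2 features share the RNA and the hybridisation, so they are not replicates of a condition.

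Both MUC1 features were far above the level of genes not known to act in breast epithelium. That level, called background here, was the 95th percentile of 60 olfactory receptor features, an intensity of 325 in the shTRPS1 array and 397 in the NC array. NM_001018016 was brighter than or equal to 96.9% of named features in the shTRPS1 array and 89.9% in the NC array. For NM_001018017 these shares were 96.1% in the shTRPS1 array and 91.0% in the NC array. MUC1 RNA was thus among the brighter signals of T47D cells with either lentivirus. In bulk RNA, a difference in the number of cells that carry a transcript and one in the RNA per cell cannot be told apart.

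A feature was called if it was at least 2-fold apart and above background on at least 1 array. By this rule 1 of the 4 mucin features, NM_001018016, was called higher and 0 were called lower. Over all named features 2.29% were called higher and 1.44% lower, and since MUC1 was chosen with its value known, nothing is read from the comparison. NM_001018017 was just under the 2-fold threshold. By size of difference from the top, NM_001018016 ranked 208 and NM_001018017 ranked 642 among the 12598 named features, a rank that dim and noisy features enter too.

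Log2 differences of features about as bright as MUC1 had a narrower spread than those of all named features, whose SD was 0.58. Among the 676 named features within 0.5 log2 units of the mean MUC1 signal, the log2 difference had a median of 0.05 and an SD of 0.38 across features, with its central 95% between -0.67 and 0.74. The MUC1 values of 1.34 and 0.97 had chosen the gene, so nothing is read from their place in this range. In this brightness range 1.18% of features were called higher and 0.444% lower, which is 8 and 3 features, NM_001018016 among the 8. Spread across features of different genes is not replicate error, and how far MUC1 would vary between cultures of the same cells was not measured.

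**Figure D1:**
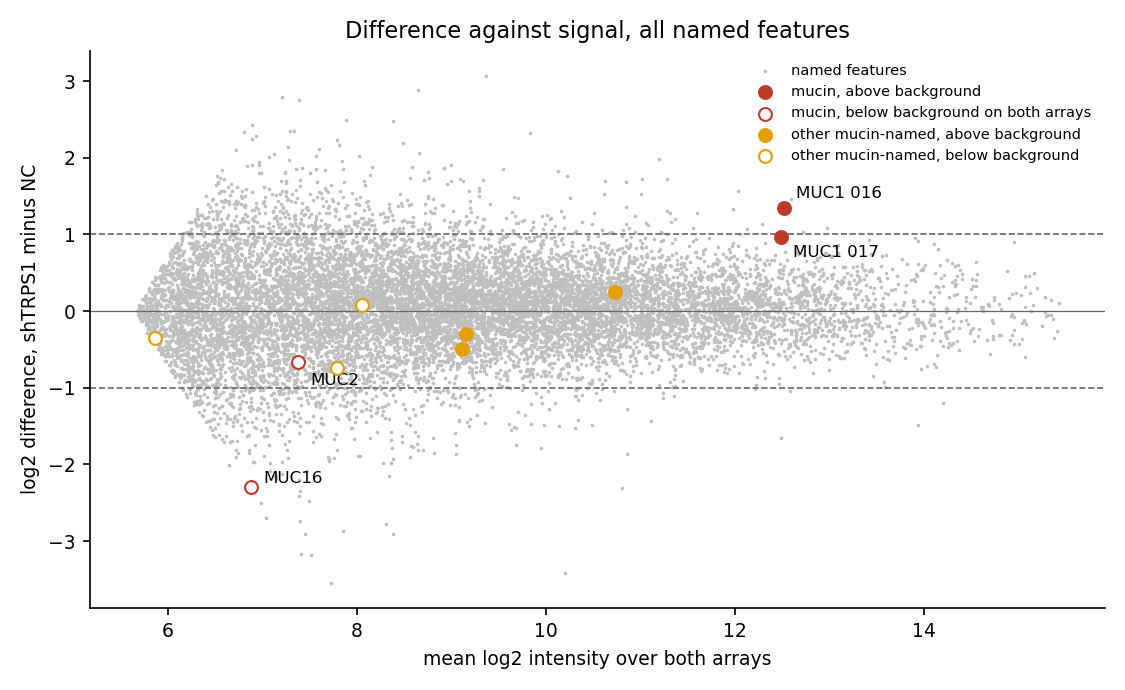
Log2 difference (shTRPS1 minus NC, y axis) against mean log2 intensity of both arrays (x axis) for the 12598 named features, with dashed lines at 2-fold. The MUC1 features stand at 1.34 and 0.97 at the bright end, and the open symbols of MUC2 and MUC16 lie in the dim range where neither array exceeded background.

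The 2 MUC1 features differed from each other by 0.37 on the log2 difference scale. This gap was set beside 519 genes with at least 2 features above background on at least 1 array, MUC1 included. The gap between the 2 brightest features of a gene had a median of 0.28 and a 90th percentile of 0.78, and 62.0% of the genes had a gap no larger than that of MUC1. The labels do not say which exons the probes of either MUC1 feature cover, and RefSeq transcripts of MUC1 share sequence, so the features may read overlapping RNA.

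**Figure D2:**
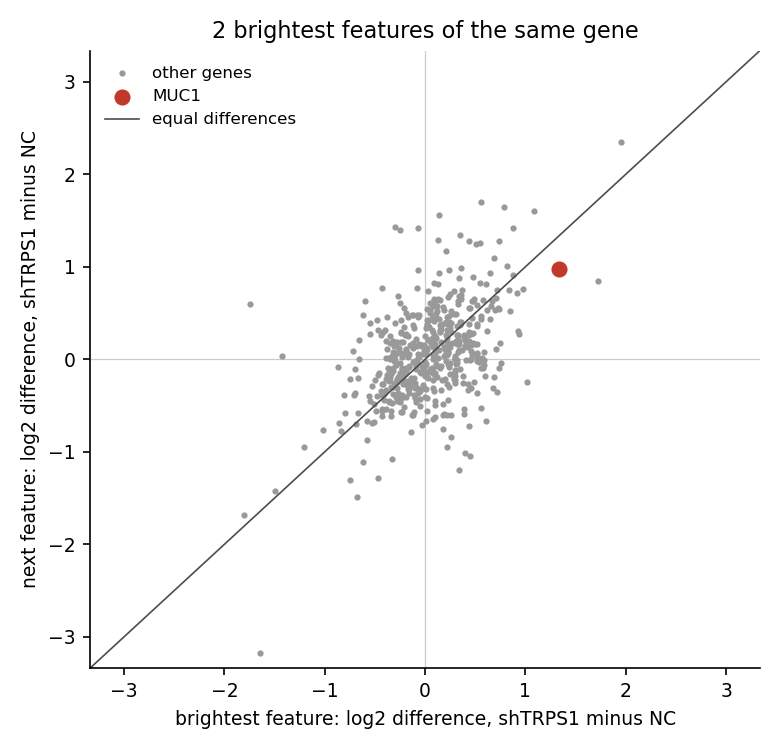
Log2 difference (shTRPS1 minus NC) of the brightest feature (x axis) and of the next brightest (y axis) for 519 genes with at least 2 features above background, 1 point a gene. MUC1 stands at 1.34 and 0.97, a gap of 0.37 from the line of equal differences.

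MUC2 and MUC16 were not above background on either array. MUC2 (NM_002457) had an intensity of 132 in the shTRPS1 array and 210 in the NC array, under both background levels. MUC16 (NM_024690) had 53.3 in the shTRPS1 array and 261 in the NC array. Both features read lower in the shTRPS1 array, but no fold is given between values that both lie under background. The MUC16 value in the shTRPS1 array was close to 50, the smallest intensity kept in the table. Neither the gel-forming mucin of the gut nor the second transmembrane mucin was above background on these arrays. A value under this level does not show that a transcript is absent from the cells. That limit holds for every gene given as below background here.

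Of 15 further mucin-named genes, 6 were measured and 0 were called in either direction. Over all 11564 genes 2.27% were called higher and 1.43% lower. This list and those that follow are too small for a count of 0 or 1 called to be read against those shares. CD164, a sialomucin of adhesion and lysosomes, had an intensity of 1856 in the shTRPS1 array and 1558 in the NC array, a log2 difference of 0.25. MUCL1, a small mucin-like protein of breast and sweat glands, had 467 in the shTRPS1 array and 660 in the NC array, a log2 difference of -0.50. MUCL3, a mucin-like membrane protein, had 514 in the shTRPS1 array and 634 in the NC array, a log2 difference of -0.30. MUCL1 and MUCL3 thus had the opposite sign to MUC1 and were less than 2-fold apart. MCAM, OVGP1 and PODXL were not above background on either array.

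**Figure D3:**
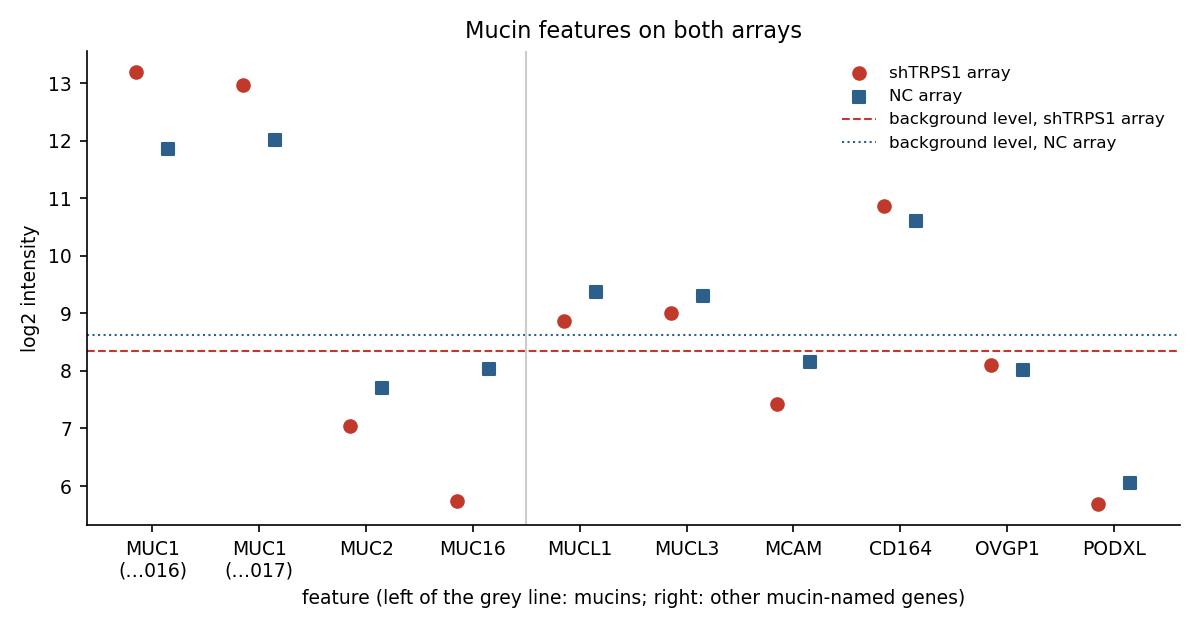
Log2 intensity (y axis) of the 4 mucin features and 6 other mucin-named genes (x axis), with the shTRPS1 array as circles left of the NC array as squares and lines for each array's background level. MUC1 is well above both lines with the circles higher, while MUC2 and MUC16 lie under both lines.

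Among the enzymes that build mucin sugar chains, 1 gene was called. Polypeptide GalNAc transferases attach the first sugar to serine or threonine, and of 20 listed 11 were measured, with 0 called in either direction. Their median log2 difference was -0.05, beside 0.05 over all genes, both without a filter on background. Over the transferases with both arrays above background it was 0.059. GALNT2, the brightest, had an intensity of 5337 in the shTRPS1 array and 5994 in the NC array. GALNT6, a transferase known from breast cancer, had 1472 in the shTRPS1 array and 1031 in the NC array, a log2 difference of 0.51. GALNT11 had 1342 in the shTRPS1 array and 1288 in the NC array.

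Of 25 listed enzymes that extend or cap the chains, 15 were measured and 1 was called higher and 0 lower, with a median log2 difference of 0.07, or -0.10 over those with both arrays above background. The gene called was FUT4, a fucosyltransferase of Lewis-type antigens. FUT4 had 408 in the shTRPS1 array and 176 in the NC array, and since the NC value is under background it was at least 1.03-fold higher. ST6GALNAC2, which adds sialic acid to the first sugar, had 3974 in the shTRPS1 array and 2992 in the NC array, a log2 difference of 0.41. B4GALT5 had 1555 in the shTRPS1 array and 1853 in the NC array, and FUT1 had 991 in the shTRPS1 array and 1061 in the NC array. C1GALT1C1, the chaperone needed for the core galactosyltransferase, had 479 in the shTRPS1 array and 361, under background, in the NC array; it was named after its values were seen.

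The reported partners, kinases and sheddases of MUC1 were listed under 32 symbols, CD169 being an older name of SIGLEC1, and 23 were measured, with 0 called higher and 1 lower, beside 2.27% and 1.43% of all genes. Their median log2 difference was 0.15, and 15 of the 23 values were positive, beside 53.4% of all genes. JUP, plakoglobin, a junction protein that binds the MUC1 tail, had 24022 in the shTRPS1 array and 13069 in the NC array, a log2 difference of 0.88, and its second feature had 0.91. Its paralogue CTNNB1, beta-catenin, was below background with 242 in the shTRPS1 array and 280 in the NC array. LGALS3, galectin-3, a lectin that binds MUC1 sugars, had 3039 in the shTRPS1 array and 1862 in the NC array, a log2 difference of 0.71. CTNNB1, LGALS3 and the genes of the next paragraph were named after their values were seen. The chaperones HSP90AA1 and HSPA8 had log2 differences of 0.04 and -0.39 on their brighter features, and 0.35 and -0.33 on the others.

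EGFR, ERBB2 and ERBB3, receptors that form complexes with MUC1, were less than 2-fold apart by their measured intensities. EGFR had 347 in the shTRPS1 array and 267, under background, in the NC array on its brightest feature. Its other features were not above background on either array. ERBB2 had 1206 in the shTRPS1 array and 1622 in the NC array, a log2 difference of -0.43. ERBB3 had 2478 in the shTRPS1 array and 1796 in the NC array on its brighter feature, a log2 difference of 0.46. The log2 difference of the other ERBB3 feature was 0.04. The sheddase genes ADAM10 and ADAM17, whose proteases release the MUC1 ectodomain, were below background on both arrays. NCSTN, nicastrin of the gamma-secretase complex, had 1371 in the shTRPS1 array and 728 in the NC array, a log2 difference of 0.91.

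ZAP70, a kinase best known from T cells that is reported to phosphorylate the MUC1 tail, was the gene called lower. Its brighter feature had 62.0 in the shTRPS1 array and 721 in the NC array, which is at least 2.22-fold lower because the shTRPS1 value is under background. The second ZAP70 feature had 82.5 in the shTRPS1 array and 275 in the NC array and was not above background on either.

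Genes of mucus-secreting and apocrine epithelium had differences of both signs. Of 19 listed, 12 were measured, 0 were called higher and 1 lower, beside 2.27% and 1.43% of all genes. The median log2 difference was 0.31 over the 12, but -0.19 over the 6 with both arrays above background, so the list has no settled direction. The gene called was PIP, the prolactin-induced secretory protein of apocrine epithelium, with 9361 in the shTRPS1 array and 26265 in the NC array, 2.81-fold lower. SPDEF, a transcription factor of secretory and luminal cells, had 25219 in the shTRPS1 array and 16854 in the NC array, a log2 difference of 0.58. AGR2, a disulfide isomerase needed for mucin folding, had 4202 in the shTRPS1 array and 4175 in the NC array. SCGB1A1, a secretoglobin of airway club cells, had 950 in the shTRPS1 array and 1264 in the NC array. PIP and MUC1, both bright secretory-pathway products of luminal cells, thus had opposite signs in the same pair of arrays.

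Of 18 transcriptional regulators reported to act on the MUC1 gene, 16 were measured and 0 called, beside 2.27% of all genes called higher and 1.43% lower. Their median log2 difference was 0.15. GATA3, a luminal factor, had 25543 in the shTRPS1 array and 22487 in the NC array, a log2 difference of 0.18. YBX1 had 17899 in the shTRPS1 array and 11729 in the NC array, a log2 difference of 0.61, and the chromatin remodeller SMARCA4 had 7810 in the shTRPS1 array and 8773 in the NC array, a log2 difference of -0.17. STAT3 had 2011 in the shTRPS1 array and 1850 in the NC array on its brighter feature and 1918 in the shTRPS1 array and 1284 in the NC array on the other, log2 differences of 0.12 and 0.58; it was named after its values were seen.

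**Figure D4:**
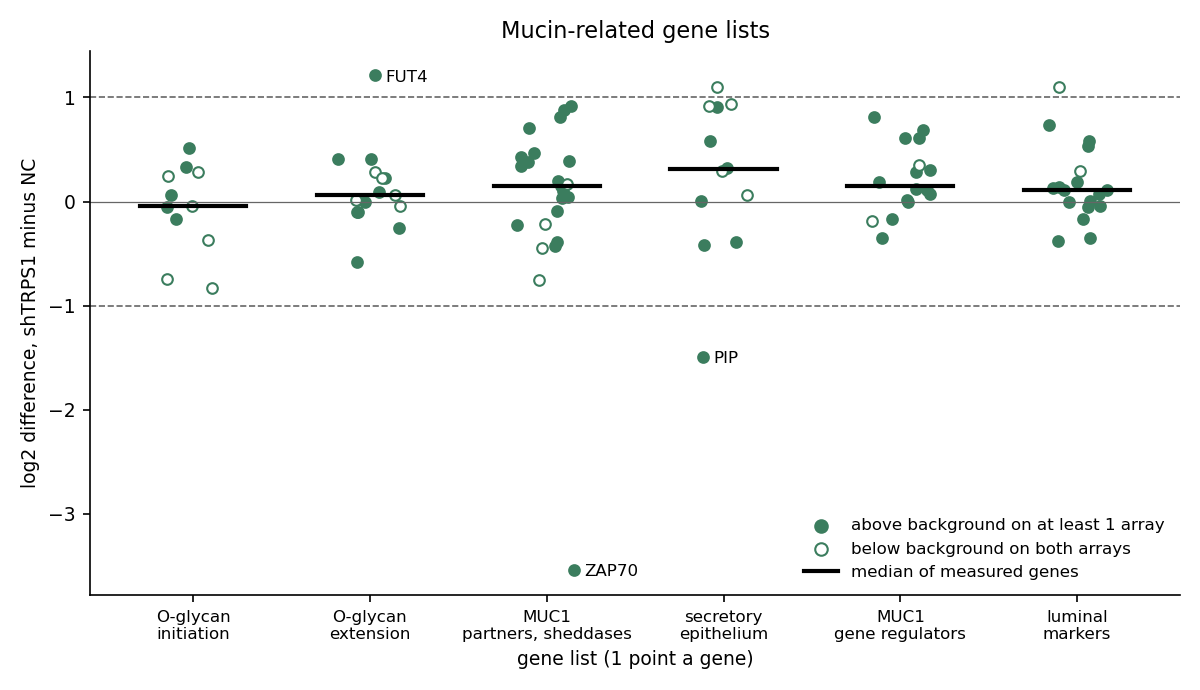
Log2 difference (shTRPS1 minus NC, y axis) of the measured genes of 6 lists (x axis), 1 point a gene, with the median as a bar and dashed lines at 2-fold. The medians lie between -0.05 and 0.31, and FUT4, PIP and ZAP70 are the genes called.

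The genes most like MUC1 in the 2 arrays were taken as the 5 nearest to its brightest feature by distance over the log2 intensities of the 2 arrays, both above background. The nearest was KRT17, a keratin of basal epithelium, at a distance of 0.14 log2 units, with 10294 in the shTRPS1 array and 3735 in the NC array. Next was SERPINH1, a collagen chaperone, at 0.35, with 7428 in the shTRPS1 array and 3391 in the NC array. TAGLN2, an actin-binding protein, followed at 0.36, with 9695 in the shTRPS1 array and 4733 in the NC array. MYC and DDB1 were at 0.40 and 0.42 and were less than 2-fold apart, with log2 differences of 0.77 and 0.89. Likeness over 2 arrays means only that these intensities are near each other.

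Of 18 luminal markers all 18 were measured and 16 were above background on both arrays, with 0 called in either direction, beside 2.27% of all genes called higher and 1.43% lower. Their median log2 difference was 0.11, beside 0.05 over all genes. Of their values 12 were positive and 6 negative, beside 53.4% positive over all genes. KRT8 had 27010 in the shTRPS1 array and 35126 in the NC array, and KRT19 had 40087 in the shTRPS1 array and 41417 in the NC array. GATA3, given above, was the third of the brightest uncalled markers. TFF1 and TFF3, named after their values were seen, were the 2 markers below background on both arrays. Of 14 markers of fibroblasts, leukocytes, endothelium and blood 4 were measured, 1 was called higher and 0 lower. CD14, LYZ and CDH5 were below background on both arrays. The gene called was COL1A1, a fibrillar collagen, with 773 in the shTRPS1 array and 363 in the NC array, 2.13-fold higher by its intensities and at least 1.95-fold higher since the NC value is under background. Its part in the MUC1 difference was not tested.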

How the data were processed

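The values were the intensities the authors deposited for 2 arrays, on a linear scale, 1 per transcript accession. RMA is named per the submitters' processing notes; its version and steps, and the genome build behind the array, are not stated in the labels. No intensity was under 50, so dim transcripts may be absent from the 28973 features. The name of a second table says that part of the genes was excluded from the sample tables. Genes without a value may therefore be missing for a reason other than low signal. That second table has 8 sample columns, 2 of them with values, under names that match no label. Its columns were not used. Features were named through RefSeq accessions in the GRCh38.p14 gene table (12598 named, 16375 not). Log2 values were compared without rescaling. For a gene with several features, the one with the highest mean over both arrays stood for it. Where 1 array was under background, its value was set to that level and the fold is given as "at least". With 1 array a group, no p-value or SE was computed, and precision is limited by having 2 arrays.

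The members and the 8 gene lists were chosen with earlier results of these data known. The genes named were TRPS1, every mucin feature, every called list member, the 3 brightest uncalled members of each list and the 5 genes nearest to MUC1. MCAM, OVGP1 and PODXL were also named, as the rest of the measured mucin-named genes, and others are marked. Upstream sequences are from RefSeq. Alternatives were 3 rescalings (median centring, quantile, lowess with span 0.4), log2(intensity + 50), call thresholds of 1.5-fold and 3-fold, other filters on background, and means over features. The call rule was tested on simulated data with planted differences well over 2-fold, in bright features only. That does not test calls near the threshold or near background. Python 3.11.15, numpy 2.4.6, pandas 2.3.3, statsmodels 0.14.6 and matplotlib 3.10.9 were used.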

Additional observations from a re-analysis of the deposited data

How the results depend on the processing

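The MUC1 difference changed little with the scaling. Over 3 rescalings and log2(intensity + 50), NM_001018016 stayed between 1.30 and 1.33 and NM_001018017 between 0.93 and 0.96, so the first remained over and the second under 2-fold. The count of mucin features called higher, 1 in the values as reported, was 2 at 1.5-fold and 0 at 3-fold. The count called lower was 1 in place of 0 with no background filter, through MUC16. All 24 list medians under the 3 rescalings moved by at most 0.1. With no background filter the secretory and the luminal list each had 1 gene called higher in place of 0, which was TFF1. Restricted to genes with both arrays above background, the median was 0.059 for GalNAc transferases, -0.10 for chain extension and -0.19 for the secretory list; fewer genes enter, and chain extension then had 0 genes called higher and the MUC1 partners 0 called lower, since FUT4 and ZAP70 drop out. No gene of the list of other cell types was left under that restriction. No paired analysis was possible because each group had 1 array, and no array could be left out. Signal over background limits MUC2 and MUC16, for which no change in either direction could be measured.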

Other observations

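The coding genes directly beside MUC1 in the RefSeq gene order of chromosome 1 were looked up after the MUC1 values were seen. TRIM46, on one side, had 723 in the shTRPS1 array and 540 in the NC array, a log2 difference of 0.42. THBS3, a thrombospondin on the other side, had 515 in the shTRPS1 array and 340, under background, in the NC array. Both were less than 2-fold apart by their measured intensities.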
